A study of Mus musculus with 8 samples.

Results

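Kinesins are motor proteins that walk along microtubules with energy from ATP. The genes described here are those whose symbol is Kif followed by a digit, together with the genes of the kinesin-14 motors (Kifc1, Kifc2 and Kifc3), the kinesin light chains (Klc1 to Klc4) and the kinesin-2 adaptor (Kifap3). The files hold 48 such genes among 24411. By textbook function 13 were classed as mitotic, 20 as cargo transport and 15 as other, which covers ciliary and regulatory members and 3 genes that match by name only. Those 3 encode no motor: Kif1bp is a kinesin-binding protein, Kif16bos an RNA from the opposite strand and Kif4-ps a pseudogene.

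A223 cells, labelled as a squamous carcinoma line of the mouse, were profiled by sequencing of polyadenylated RNA in 8 libraries, 2 for each of 4 groups. Parental cells, and cells in which the peroxiredoxin PRDX6 was knocked down (KD), were taken either with the solvent DMSO at 0 h or with 100 nM largazole at 18 h. Largazole inhibits class I histone deacetylases. Each contrast of drug with solvent is therefore also one of 18 h with 0 h, and the KD cells, of which it is not stated whether they are 1 clone or a pool, have parental cells as their only control here. The labels do not say that replicates are separate cultures, and p-values then reflect only how far these libraries spread, which may be technical.

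Library totals lay between 13020492 and 15613216 estimated counts, and the replicates of every group differed by more than sampling noise. The scatter was largest between the KD largazole replicates, with a chi-square per degree of freedom of 46.1 and an SD of the log2 difference of 0.359. It was smallest for parental DMSO, with 2.02 and 0.194, and the other groups lay between. The main fit shares its spread over the groups and does not allow for this difference. Levels are CPM, a gene's share of the library's counts scaled to 1e+06 and corrected with TMM factors. As a check of the knockdown labels, Prdx6 in KD cells held 28.6% of its parental level before the drug and 29.8% after it. Rn45s, the ribosomal RNA precursor, ranged from 742 to 23907 CPM over the libraries, with its highest level in KD largazole replicate 1 and its lowest in KD largazole replicate 2. Of the squamous epithelial markers, Krt5, Krt6a, Trp63, Cdh1 and Dsp lay between 0 and 1.55 CPM and Krt14 and Epcam between 0 and 3.97 CPM in every library, while Krt8 was at 1006 to 2269, Itga6 at 191 to 392, Itgb4 at 69.5 to 197, Krt18 at 94.8 to 183 and Sox2 at 17.7 to 63.0 CPM. The mesenchymal genes Vim (5035 to 6492 CPM) and Col1a1 (1178 to 1925 CPM) were high in all libraries. In cells labelled squamous carcinoma, 7 of the 12 markers, the keratinocyte genes Krt5, Krt14 and Trp63 among them, were thus low and 5 were well detected.

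Mitotic kinesins build the spindle, move chromosomes and divide the cell, and most of their genes are transcribed late in the cell cycle. Many such genes carry a cell cycle genes homology region (CHR) close to the start of transcription, where the DREAM and MuvB complexes bind, often downstream of CCAAT boxes bound by NF-Y. Transport kinesins carry vesicles, organelles and RNA. Conventional kinesin (kinesin-1) pairs 2 heavy chains with 2 light chains, and heterotrimeric kinesin-2 joins 2 motor subunits to an adaptor. Several transport members are best known from neurons.

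The CHR, searched as TTTGAA on both strands of the RefSeq promoters (GRCm38.p6, windows of 300 bases of which all but the last 50 lie before the gene start), was common among the mitotic members. Of the 48 genes 37 had a promoter in the table, 12 of them mitotic, 14 transport and 11 other. The motif occurred in 10 of 12 mitotic promoters, in 1 of 16 transport promoters (that of Kif1a) and in 2 of 13 others, those of Kif26b and Kif27. Over all 32851 promoters the share was 17.89%, and over the 12198 promoters of tested genes 11.75%. Within 50 bases of the start the motif lay in 8 of 12 mitotic promoters, against 4.944% of all promoters, and in 1 transport and 1 other promoter (Kif1a and Kif26b). The 8 mitotic sites are shown because they lie near the start. Their genes fell with largazole, as described below, but so did the tested mitotic members without such a site. Each site is read 5′ to 3′ on the strand of its gene, with the CHR or its reverse complement in capitals.
Kif11: gtctccatttTTCAAAattgaggcgc
Kif15: gggcgccaaaTTCAAAtctgcggcca
Kif18b: gaccggctagTTTGAAcgcgccgcgc
Kif20b: ccgccattgTTTGAATTTGAAaaccgggag
Kif22: gccccggtaaTTCAAAagagagaagc
Kif23: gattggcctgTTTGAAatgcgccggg
Kif4: ctgggatcaaTTTGAAacttggcggt
Kifc1: gaggttgaaaTTCAAAagtggcgggt

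On GRCm38 these sites lie at chr19:37376353-37376378 (Kif11, plus strand), chr9:122951052-122951077 (Kif15, plus), chr11:102925106-102925131 (Kif18b, minus) and chr19:34922356-34922385 (Kif20b, plus). The others lie at chr7:127042422-127042447 (Kif22, minus), chr9:61946782-61946807 (Kif23, minus), chrX:100626074-100626099 (Kif4, plus) and chr17:33890617-33890642 (Kifc1, minus). The first base of the motif was between 19 bases before and 19 bases after the annotated start in all 8, and Kif20b had 2 copies in a row. Kif14 and Kif2c held the motif farther upstream, at 228 and 103 bases. The windows of Kif18a and of Kif2b did not hold these letters, and no promoter of Kif20a was matched. The CCAAT box, searched as CCAAT on both strands, occurred in 8 of 12 mitotic and 7 of 16 transport promoters, against 37.41% of all promoters, and no occurrence of one motif overlapped one of the other in these promoters. These matches describe the sequence only.

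**Figure D1:**
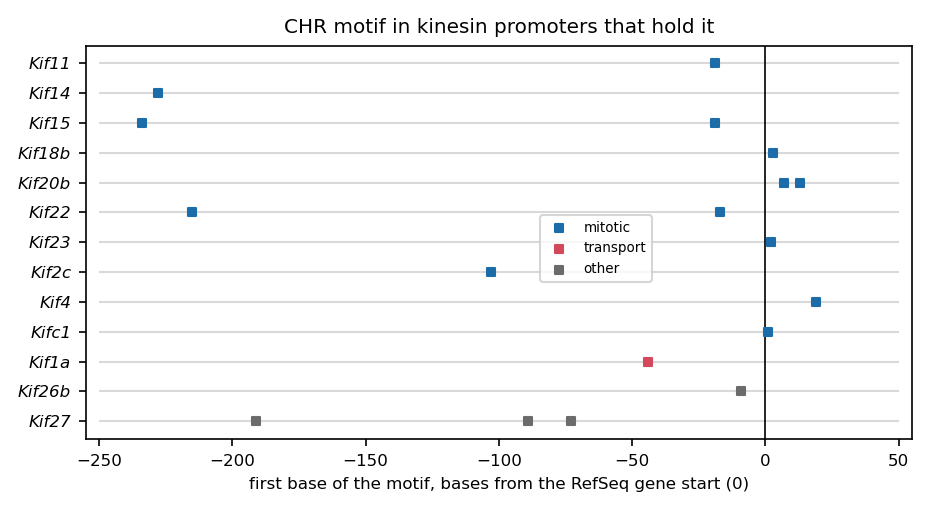
Position of the CHR motif in the 13 kinesin promoters that hold it, in bases from the RefSeq gene start (x axis), with each gene on its own line and each square 1 occurrence, coloured by class. In 8 mitotic promoters (blue) a square lies within 19 bases of the start, and the only transport promoter with the motif is that of Kif1a.

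The 90 bases before the RefSeq start of Kif11 (chr19:37376292-37376381, plus strand) show the CHR, in capitals, in its surroundings, with a CCAAT box as its reverse complement 45 bases before the start. The same stretch of Kif5c (chr2:49619196-49619285, plus strand), the transport kinesin whose level changed most in parental cells, is given for comparison, and its whole 300-base window holds neither motif.
Kif11: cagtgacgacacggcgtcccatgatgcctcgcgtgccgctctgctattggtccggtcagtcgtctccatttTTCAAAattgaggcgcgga
Kif5c: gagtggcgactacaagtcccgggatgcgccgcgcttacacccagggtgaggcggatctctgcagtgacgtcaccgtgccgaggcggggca

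Of the 48 members, 39 had at least 10 counts in 2 or more libraries and were tested (12 mitotic, 19 transport and 8 other) within a fit of all 12567 genes that passed this filter. Kif2b, Kif6, Kif12, Kif16bos and Kif4-ps had 0 counts in all 8 libraries, which allows levels of up to 0.198 to 0.234 CPM (3 counts per library, counting error only). Kif1a, the neuronal carrier of synaptic vesicle precursors, had at most 2 counts, Kif19a and Kif26a at most 5. Kif27 was just outside the filter, with 10 counts in 1 library, and Kif5a just inside it, with 10 or more counts in 4 libraries.

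Levels were compared between members per kilobase of annotated exon. In parental DMSO cells the highest was Kif20a at 62.1 ± 0.485 CPM per kb (SD, n = 2 libraries), followed by Klc1 (47.7 ± 1.49), Kif1c (41.8 ± 1.76), Kif5b (36.9 ± 1.43) and Kifc1 (35.0 ± 0.958). Kif5b and Kifc1 differed by little more than their spread, and the other neighbours in this order lay farther apart. At the low end of the tested members were Kif5c (0.128 ± 0.0056), Kif5a (0.0607 ± 0.0039) and Kif9 (0.0602 ± 0.0852), and the last pair did not differ beyond their spread. The summed level of the mitotic members, per kb, was 1.23 and 1.22 times that of the transport members in the 2 parental DMSO libraries and 1.11 and 1.12 times in KD DMSO. After largazole the ratio was 0.466 and 0.454 in parental and 0.365 and 0.358 in KD cells. Per kb it was thus above 1 before and below 1 after the drug in both genotypes. In KD cells its side of 1 before the drug depends on the division by length. Without that division the KD DMSO sums were 1192 and 1258 CPM for mitotic and 1206 and 1266 for transport members. In parental DMSO they were 1354 and 1371 against 1258 and 1292 CPM.

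The first question was what largazole does to the motors in each genotype, and it was put to parental and to KD libraries apart. All 12 tested mitotic kinesin genes fell in both genotypes, to between 21.5% and 61.7% of the DMSO level. Transport kinesins did not move together. In parental cells 9 of 19 rose and none fell, and in KD cells 9 rose and 1 fell. Kif5a, Kif5c and Kifc2, motors known from neurons, had the largest rises, from low starting levels, while Kif5b and Kif1c, the most abundant transport motors per length, had changes that did not pass the test.

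Of all 39 tested members 25 passed in parental and 28 in KD cells, where 49.3% and 47.7% of all tested genes did. Against the counts by direction, 22.6% of all tested genes fell and 26.7% rose in parental cells, and 23.1% fell and 24.6% rose in KD cells (edgeR's quasi-likelihood F test over all 12567 genes, two-sided, Benjamini-Hochberg adjusted p under 0.05). The median log2 fold change of the mitotic members was -1.26 in parental and -1.34 in KD cells, where all tested genes had medians of 0.03 and 0.01. For the transport members it was 0.31 and 0.33. The libraries of drug and solvent did not overlap for any of the 12 mitotic members in either genotype, as for 38.8% of all tested genes in this direction in parental and 33.9% in KD cells. Of the transport members 13 were higher without overlap in parental and 11 in KD cells, where 42.2% and 35.7% of all tested genes were. The count of 12 mitotic members lower held in both genotypes without any 1 library, with either other scaling, with other filters and with DESeq2. The number of transport members that rose was 5 in parental cells without parental DMSO replicate 1 and 5 in KD cells without either KD DMSO library, and the number that fell in parental cells was 4 and 3 without KD largazole replicate 1 and 2. In bulk RNA, fewer dividing cells and less of each RNA per cell cannot be told apart.

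**Figure D2:**
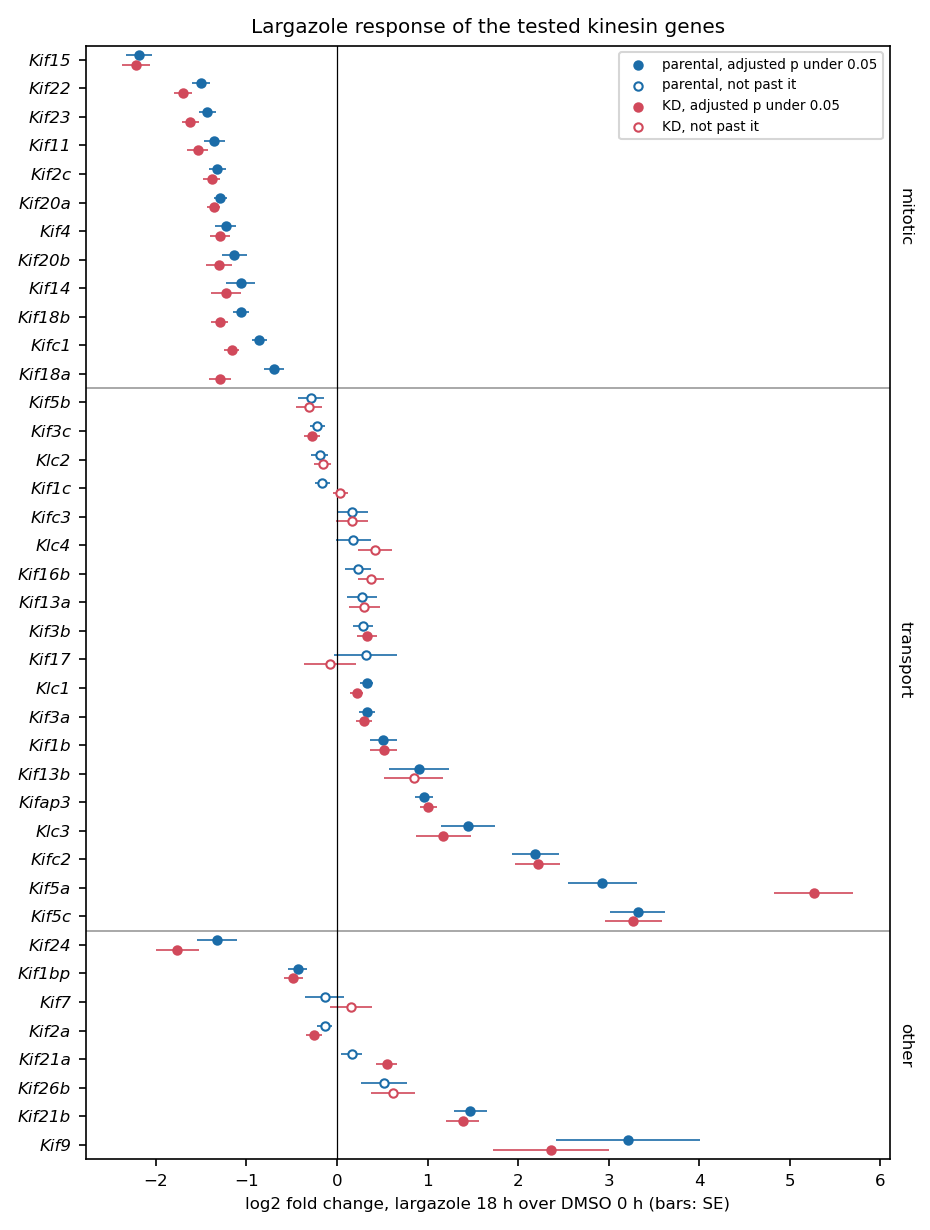
Log2 fold change with largazole (18 h over DMSO at 0 h, x axis) of the 39 tested kinesin genes in parental (blue) and KD cells (red), with bars of 1 SE and filled points where the adjusted p was under 0.05. All 24 points of the 12 mitotic genes are filled and lie left of 0, and the transport genes spread from -0.31 to 5.26.

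Among the motors that set up the spindle, Kif15, a kinesin-12 motor that helps to keep it bipolar, fell most. Its level was 54.4 and 52.7 CPM before and 11.5 and 12.1 after the drug in parental cells, and 37.2 and 46.0 before and 7.79 and 9.98 after it in KD cells. The treated libraries of each genotype lay far below its DMSO libraries, with log2 fold changes of -2.18 ± 0.15 in parental (SE, adjusted p = 2.34e-06) and -2.22 ± 0.15 in KD libraries (adjusted p = 2.82e-06). Kif11 (Eg5), which slides microtubules apart to separate the spindle poles, was at 168 and 174 CPM before and 63.8 and 70.4 after the drug in parental cells, and 146 and 169 before and 48.0 and 60.3 after it in KD cells. It held 39.1% of its DMSO level in parental and 34.4% in KD cells. Kifc1 (HSET), a minus-end motor that focuses spindle poles, was at 117 and 122, 68.5 and 63.4, 113 and 111, and 49.4 and 50.8 CPM in the same 4 groups. Its fall was smaller, to 55.2% and 44.7% of the DMSO level. Kifc1 is uncertain because a near-identical copy, Kifc5b, is listed as its own gene at 8.57 to 29.7 CPM, and reads could be split between them. Kifc5b also fell, by 1.16 and 1.60 on the log2 scale.

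The motors of chromosomes and kinetochores fell as well. Kif22 (Kid), a chromokinesin that pushes chromosome arms towards the spindle equator, stood at 116 and 119 CPM before and 43.0 and 39.8 after the drug in parental cells, and 110 and 105 before and 35.2 and 30.5 after it in KD cells. Its log2 fold changes were -1.50 ± 0.10 and -1.70 ± 0.10, second only to Kif15 among the mitotic members. Kif2c (MCAK), a depolymerase of microtubule ends at centromeres, was at 123 and 119, 47.5 and 49.4, 115 and 114, and 40.7 and 47.0 CPM in those groups, and so fell to 40.0% and 38.3%. Kif18b, which limits the length of astral microtubules, was at 86.7 and 91.4, 41.6 and 43.8, 71.6 and 75.3, and 30.6 and 29.2 CPM. Its DMSO and largazole libraries did not overlap in either genotype, with log2 fold changes of -1.06 ± 0.09 and -1.30 ± 0.09. Its relative Kif18a, which dampens chromosome movements, had the smallest fall in parental cells. The Kif18a levels were 42.5 and 44.4 CPM before and 24.6 and 29.0 after the drug in parental cells, and 38.3 and 41.0 before and 15.6 and 16.7 after it in KD cells. Its log2 fold change was -0.70 ± 0.11 without the knockdown (adjusted p = 0.000644) and -1.29 ± 0.12 with it (adjusted p = 1.64e-05). Kif4, a chromokinesin that also works in the central spindle, fell by 1.23 in parental and 1.29 in KD cells on the log2 scale.

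Of the kinesins of cell division itself, the 3 kinesin-6 motors and Kif14 fell in both genotypes. Kif23 (MKLP1), the motor of the centralspindlin complex, was at 136 and 134 CPM before and 51.1 and 48.7 after the drug in parental cells, and 112 and 119 before and 34.6 and 40.7 after it in KD cells. This was a fall to 37.0% of the DMSO level in parental and 32.6% in KD cells. Kif20a (MKLP2), which brings Aurora B to the central spindle, had 271 and 268, 109 and 111, 255 and 263, and 102 and 98.8 CPM. With log2 fold changes of -1.29 ± 0.07 and -1.36 ± 0.07 it had the smallest SE of the class. Kif20b (MPP1), a motor of abscission, was at 87.7 and 92.0, 38.1 and 43.7, 71.5 and 82.0, and 26.3 and 35.5 CPM, and held 45.5% and 40.4% of its DMSO level. Kif14, which acts at the midbody, fell by 1.06 and 1.23 on the log2 scale. In the annotation 29.3% of the exon bases of Kif20a are shared with Cdc23 and 15.09% of those of Kif4 with Pdzd11, on the opposite strand, and the strand setting of the counting is not given in the sources used here.

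**Figure D3:**
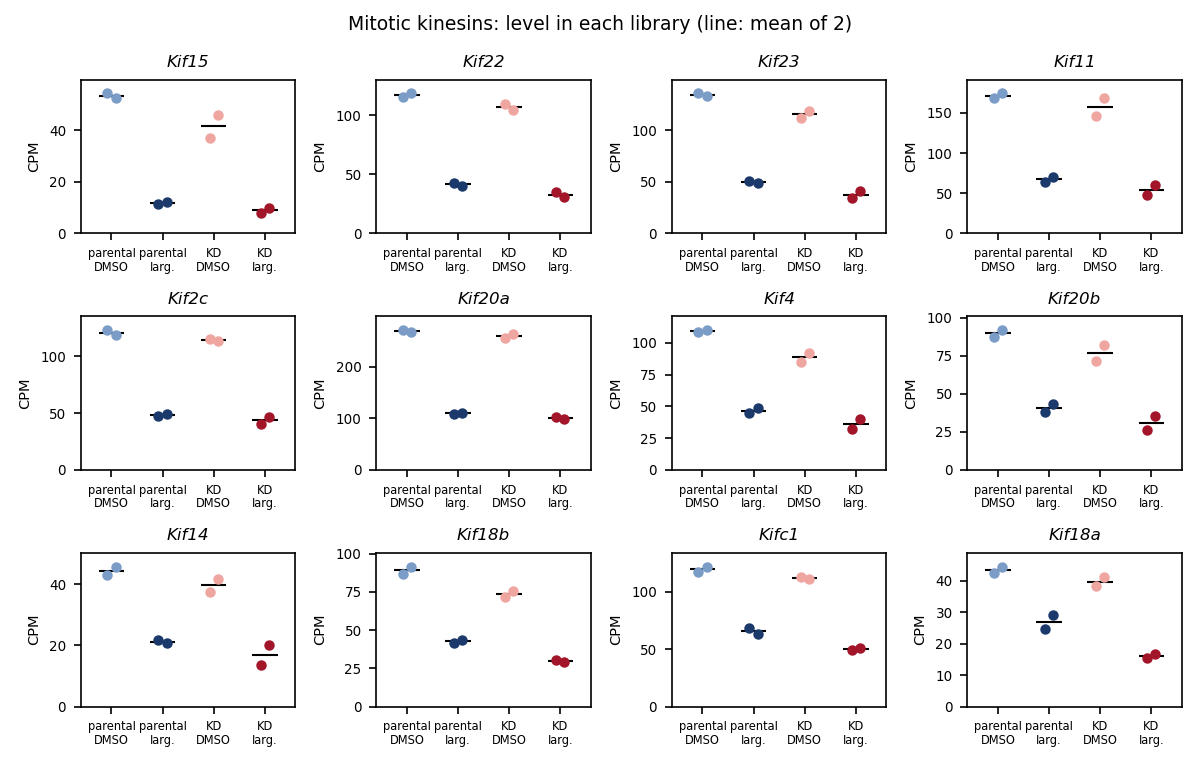
Level in CPM (y axis, from 0) of the 12 tested mitotic kinesin genes in each of the 8 libraries, with points for libraries and lines for the means of 2. In every panel the 4 largazole libraries lie below the 4 DMSO libraries.

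Genes that work with the mitotic motors showed the same direction. The list of 21 partners and markers of division runs from the spindle and cytokinesis proteins Tpx2, Prc1 and Racgap1 to the kinesin-7 gene Cenpe. All 21 fell in both genotypes, where 22.6% of all tested genes fell in parental and 23.1% in KD cells. Their medians were -1.19 and -1.36 on the log2 scale. The largest falls were those of Aurkb, the kinase of the chromosomal passenger complex, by 1.57 and 1.82, and in parental cells of Plk1, by 1.46. Of 11 factors that act at promoters of G2 and M phase genes, 10 fell in parental and 9 in KD cells, against the same shares of all tested genes. Foxm1, a transcription factor of G2 genes, went from 306 and 308 to 133 and 136 CPM in parental cells and, in KD cells, fell to 39.0% of its level in DMSO. Mybl2 fell by 1.29 and 1.69, and Lin9, a MuvB subunit, by 1.42 and 1.38. In parental cells Lin37 (-0.36, adjusted p = 0.123) did not pass, and in KD cells Lin37 (0.09) and the pocket protein gene Rbl2 (-0.32, adjusted p = 0.0666).

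On GRCm38 (GENCODE M21) the transport genes with the largest changes are Kif5a at chr10:127225696-127263348 (minus strand), Kif5c at chr2:49619298-49774778 (plus), Kifc2 at chr15:76659858-76668196 (plus), Klc3 at chr7:19394437-19404104 (minus) and Kifap3 at chr1:163779583-163917109 (plus).

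Within kinesin-1 the heavy chains differed. Kif5a, the neuronal heavy chain, had 6 and 6 counts before and 54 and 44 after the drug in parental cells, and 3 and 1 before and 77 and 79 after it in KD cells. All 4 treated libraries lay above all 4 DMSO libraries, with ratios of the summed counts of 7.75 (95% exact binomial interval 4.24 to 15.5) in parental and 40.5 (15.5 to 151) in KD cells. Those intervals cover counting error only, and Kif5a passed the filter through the largazole libraries alone, so it could be tested only because it was higher there. Kif5c, a neuron-enriched heavy chain, was at 0.888 and 0.945 CPM before and 7.96 and 10.5 after the drug in parental cells, and 0.593 and 1.11 before and 7.48 and 8.83 after it in KD cells. It rose with log2 fold changes of 3.32 ± 0.30 (adjusted p = 1.7e-05) and 3.27 ± 0.31 (adjusted p = 2.2e-05), about the same size in both genotypes. Kif5b, the ubiquitous heavy chain, was at 286 and 302, 224 and 257, 255 and 296, and 185 and 260 CPM in those groups. Its changes of -0.29 (adjusted p = 0.12) and -0.31 (adjusted p = 0.104) did not pass. Its parental libraries were lower with the drug without overlap, as for 38.8% of all tested genes, and its KD libraries overlapped. Kif5b passed as lower in some of the other fits in each genotype. Without 1 library at a time its change ran from -0.40 to -0.19 in parental and from -0.57 to -0.08 in KD cells.

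Despite those rises Kif5b remained the main heavy chain. Per length it made up 99.5 ± 0.015% of the heavy chain RNA before and 94.5 ± 0.0041% after the drug in parental cells, and 99.6 ± 0.069% and 93.3 ± 1.29% in KD cells (SD, n = 2). The share of Kif5c went from 0.346 ± 0.0018% to 4.03 ± 0.387% in parental and from 0.337 ± 0.111% to 3.88 ± 0.426% in KD cells.

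The light chains, which bind cargo, differed too. Klc3 was at 4.14 and 4.79 CPM before and 12.2 and 12.1 after the drug in parental cells, and 5.14 and 3.91 before and 13.8 and 6.88 after it in KD cells. It rose by 1.44 ± 0.30 (adjusted p = 0.00289) and 1.17 ± 0.30 (adjusted p = 0.00963) on the log2 scale. The KD largazole libraries of Klc3 were far apart, and its KD call was lost without KD DMSO replicate 2 (adjusted p = 0.0726). Klc1, the most abundant light chain, rose by 0.33 ± 0.07 in parental and 0.22 ± 0.07 in KD cells (adjusted p = 0.00388 and 0.0306). The parental call of Klc1 was lost without parental DMSO replicate 1 (adjusted p = 0.0606), and the KD call with DESeq2 (0.0568) and without any of 5 libraries in turn (up to 0.137). Klc2 (-0.19 and -0.16) and Klc4 (0.18 and 0.42) did not pass. Exons of Klc3 overlap those of Ercc2 on the opposite strand over 28.11% of their length.

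In kinesin-2, whose heterotrimer also builds cilia, the adaptor had the largest fold change. Kifap3, the adaptor, was at 69.5 and 70.8 CPM before and 129 and 144 after the drug in parental cells, and 82.2 and 85.8 before and 156 and 182 after it in KD cells. It was 1.94-fold higher with the drug in parental and 2.01-fold higher in KD cells, with no overlap and with SEs of 0.10 on the log2 scale. The motor subunit Kif3a rose by 0.33 ± 0.09 and 0.30 ± 0.09 (adjusted p = 0.0122 and 0.0187). Kif3b was at 50.5 and 53.3, 59.6 and 67.4, 55.3 and 56.8, and 64.4 and 76.9 CPM in those groups. With the drug it rose in KD cells by 0.33 ± 0.11 (adjusted p = 0.0299), and its parental change of 0.29 just missed the threshold (adjusted p = 0.0504). Kif3c, the neuron-enriched partner of Kif3a, was the only transport member that fell, by 0.28 with the drug in KD cells (adjusted p = 0.0246), and had -0.22 in parental cells (adjusted p = 0.0633). Per length Kif3c made up 28.2 ± 0.452% of the Kif3a, Kif3b and Kif3c RNA before and 21.4 ± 0.676% after the drug in parental cells, and 26.8 ± 0.627% and 19.6 ± 0.641% in KD cells. Exons of Kif3c overlap an antisense gene, 1110002L01Rik, over 35.34% of their length. Kif17, the homodimeric member, had changes of 0.31 (adjusted p = 0.476) and -0.08 (adjusted p = 0.845).

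The small differences in kinesin-2 rest on single libraries. The Kif3a call was lost in parental cells without either parental DMSO library (adjusted p = 0.0756 and 0.109 without replicate 1 and 2) or parental largazole replicate 2 (0.0915), and in KD cells without either KD DMSO library (0.0639 and 0.102). The Kif3b call in KD cells was lost without any of 5 libraries (adjusted p up to 0.13), and the Kif3c call without any of 6 (up to 0.135) and with DESeq2 (0.0617).

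Of the 5 tested kinesin-3 carriers 2 rose in parental and 1 in KD cells, where 26.7% and 24.6% of all tested genes rose. Kif1b, which carries mitochondria or synaptic vesicle precursors depending on its isoform, was at 86.6 and 88.5 CPM before and 122 and 127 after the drug in parental cells, and 71.6 and 87.3 before and 94.0 and 133 after it in KD cells. It rose by 0.51 ± 0.15 (adjusted p = 0.0166) and 0.52 ± 0.15 (adjusted p = 0.0164). Kif13b, a carrier of phosphoinositide vesicles, was at 5.55 and 6.95, 10.5 and 13, 5.73 and 7.81, and 7.56 and 16.5 CPM. The parental libraries of Kif13b did not overlap and it rose by 0.90 ± 0.33 (adjusted p = 0.0432), whereas the KD libraries overlapped, with 0.85 ± 0.33 (adjusted p = 0.0557). The difference between these 2 responses was -0.06 (adjusted p = 1). The parental call of Kif1b was lost without any 1 of the 4 parental libraries (adjusted p from 0.0569 to 0.102), and its KD call without KD DMSO replicate 1 (0.136). The Kif13b call was lost without any 1 of the 4 parental or 2 KD DMSO libraries (from 0.0545 to 0.212). Kif1c, Kif13a and Kif16b did not pass in either genotype, with log2 fold changes between -0.16 and 0.37.

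Of the minus-end kinesin-14 transport motors, Kifc2, known from neurons, was at 1.33 and 1.75 CPM before and 7.01 and 7.18 after the drug in parental cells, and 2.11 and 1.47 before and 9.12 and 7.75 after it in KD cells. It was 4.56-fold and 4.65-fold higher with the drug, with log2 fold changes of 2.19 ± 0.26 and 2.22 ± 0.25. Kifc3, a motor of apical vesicles and cell junctions, had 0.17 in both genotypes and did not pass (adjusted p = 0.449 and 0.46).

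Genes used as neuron markers were also measured. Their summed level over 8 genes was 25.9 to 29.1 CPM before and 148 to 153 after the drug in parental cells, and 15.7 to 17.3 and 105 to 123 in KD cells. All 4 tested markers (Tubb3, Map2, Syt1 and Stmn2) rose in both genotypes, where 26.7% of all tested genes rose in parental and 24.6% in KD cells. Of these markers Syt1 and Stmn2 passed the filter only through the largazole libraries. Rbfox3, the nuclear marker of mature neurons, had 0 counts in all libraries, Elavl3 and Elavl4 at most 1 and Snap25 at most 6. The part of neuron genes in the rise of Kif5a, Kif5c and Kifc2 was not tested. Leukocyte and endothelial markers summed to 8.62 to 10.8 CPM in DMSO and 48.0 to 70.4 CPM in largazole libraries. Cd68 was at 3.92 to 4.42 CPM in DMSO and 41.1 to 62.1 CPM in largazole libraries. Ptprc had 0 counts in DMSO and 8 to 13 in largazole libraries, and passed the filter only through the latter. In KD cells Pecam1 rose with the drug, from a mean of 2.20 to 4.26 CPM, and Cdh5 fell, from 2.96 to 1.53. In parental cells these means went from 3.71 to 3.29 and from 2.50 to 3.45 CPM. Adgre1 and Cd3e had 0 counts throughout. Of the 9 tested squamous epithelial markers 6 rose and 3 fell with the drug in both genotypes. Of all tested genes 26.7% rose and 22.6% fell in parental cells, and 24.6% rose and 23.1% fell in KD cells. Krt8 and Sox2 were among those that fell, by 0.90 and 1.44 on the log2 scale in parental cells, and Itgb4 rose by 0.77. Krt14, Trp63, Epcam and Dsp, which also rose, passed the filter only through largazole libraries. The part of these markers in the kinesin results was not tested.

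**Figure D4:**
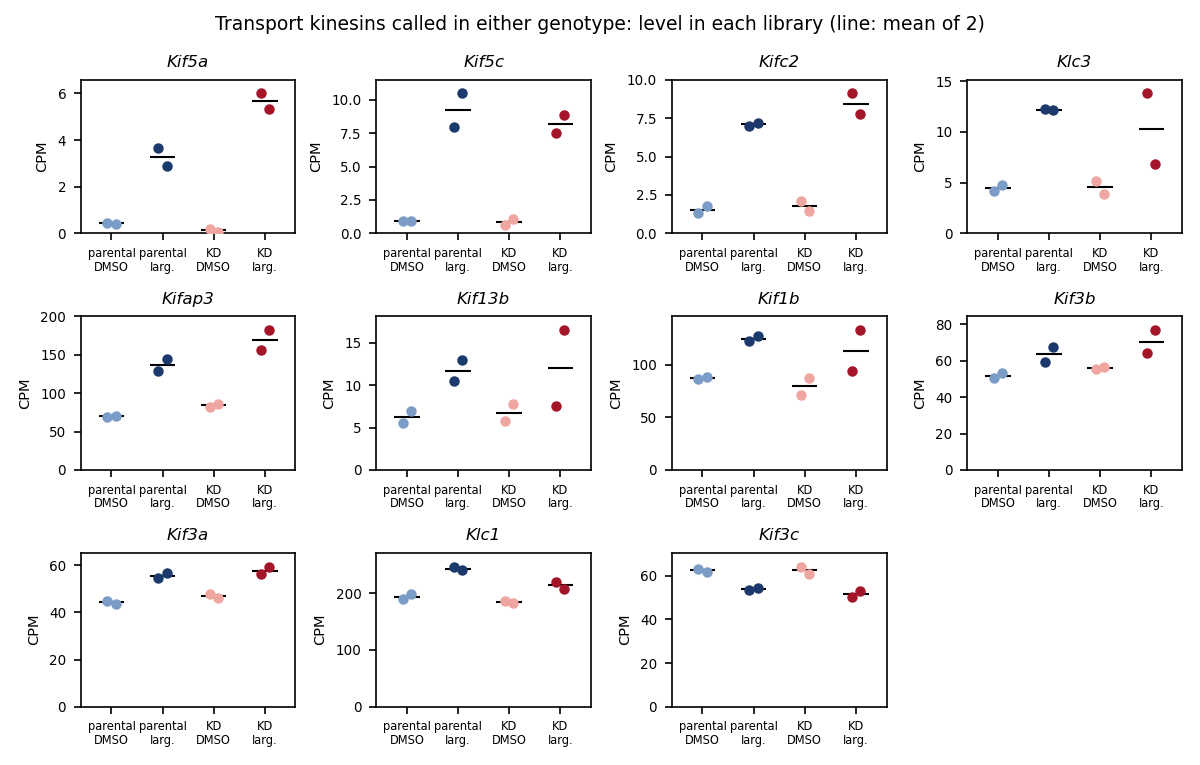
Level in CPM (y axis, from 0) of the 11 transport kinesin genes called with largazole in at least 1 genotype, in each of the 8 libraries, with points for libraries and lines for the means of 2. Kif5a, Kif5c and Kifc2 start near 0 and are higher in all largazole libraries, Klc3 and Kif13b have KD largazole libraries far apart, and Kif3c is the one panel where the largazole libraries lie lower.

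Among the remaining members Kif24, a centriolar depolymerase that restrains cilium assembly, was at 14 and 13 CPM before and 5.10 and 5.67 after the drug in parental cells, and 11.1 and 12 before and 2.42 and 4.31 after it in KD cells. It fell by 1.32 and 1.76 on the log2 scale, within the range of the mitotic members. Kif21b, a neuron-enriched regulator of microtubule growth, was at 5.25 and 5.26, 14 and 15.2, 5.93 and 5.75, and 13.2 and 17.3 CPM. It was 2.77-fold and 2.61-fold higher with the drug. Kif9, a motor of motile cilia, had 7 and 0 counts before and 24 and 47 after the drug in parental cells, and 15 and 4 before and 40 and 55 after it in KD cells. Like Kif5a, Kif9 passed the filter only through the largazole libraries. The ratio of summed counts was 9.62 (95% interval 4.44 to 24.8) in parental and 5.20 (3.15 to 9.01) in KD cells. The parental call of Kif9 was lost without parental largazole replicate 2 (adjusted p = 0.0616) and the KD call without KD DMSO replicate 2 (0.0866). Kif1bp, the kinesin-binding protein, was at 64.5 and 67.9, 45.3 and 52.8, 68.9 and 73.9, and 49.0 and 53.1 CPM, and fell by 0.43 ± 0.10 and 0.48 ± 0.10. Its parental call was lost without parental DMSO replicate 2 (adjusted p = 0.0584) or parental largazole replicate 1 (0.0723).

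Kif21a, an inhibitor of microtubule growth at the cell cortex, was at 53.3 and 53.4 CPM before and 56.6 and 62.9 after the drug in parental cells, and 61.5 and 59.8 before and 79.3 and 97.9 after it in KD cells. It rose in KD cells (0.55 ± 0.11, adjusted p = 0.00273) and had 0.16 in parental cells (adjusted p = 0.26). Kif2a, a depolymerase of neurites and spindles, fell in KD cells by 0.26 (adjusted p = 0.0327), a call lost with DESeq2 (adjusted p = 0.0653) and without any 1 library but KD largazole replicate 2 (up to 0.158). Exons of Kif2a overlap Dimt1 on the opposite strand over 19.22% of their length. Kif7, of Hedgehog signalling, and Kif26b did not pass in either genotype.

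The wider transport machinery was mixed in the same comparison. Of 14 tested cargo adaptors of kinesins 5 rose and 2 fell in parental cells, and 6 rose and 2 fell in KD cells, where 26.7% and 22.6% of all tested genes did so in parental and 24.6% and 23.1% in KD cells. Mapk8ip1 (JIP1), a scaffold that binds kinesin light chains, went from 12.1 and 11.5 to 84.3 and 87.9 CPM in parental and from 11.5 and 9.88 to 68.0 and 67.8 CPM in KD cells. Of 24 tested genes of dynein, dynactin and their activators, the minus-end transport machinery, 9 rose and 2 fell in parental cells and 11 rose and 3 fell in KD cells, against the same shares of all tested genes. The dynein adaptors Bicd1 and Hook2 rose most in parental cells, by 1.68 and 1.33. The median log2 fold changes were 0.12 and 0.21 for the adaptors and 0.11 and 0.20 for the dynein genes. They lay between those of all tested genes (0.03 and 0.01) and those of the transport kinesins (0.31 and 0.33).

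The responses in parental and in KD cells share no library. Between them Pearson's r of the log2 fold changes was 0.958 over the 39 tested members, against 0.882 over all 12567 tested genes. The genes share scaling and are not independent. The sign was the same for 36 of 39 members (92.3%) and for 86.4% of all tested genes. Kif5a and Kif9 are among the 39 and passed the filter only through the largazole libraries, so a rise was partly built in for them. The r without them was not computed. In both genotypes 8 transport members rose: Kif1b, Kif3a, Kif5a, Kif5c, Kifap3, Kifc2, Klc1 and Klc3. The share of all tested genes that rose in both was not computed. Of these members Kif5a passed the filter only through the largazole libraries. The calls of Kif1b, Kif3a, Klc1 and Klc3 were lost without single libraries, as described above.

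Whether the response differed between genotypes was tested as the difference of the 2 fold changes. No member passed in edgeR's quasi-likelihood test (0.231% of all tested genes did, 0.0398% higher and 0.191% lower), and 4 members (10.3%) had an unadjusted p under 0.05, as did 8.69% of all tested genes. The largest of these in size was Kif5a, with 2.33 ± 0.72 (adjusted p = 0.349), whose KD DMSO libraries held 3 and 1 counts. Kif18a had -0.60 ± 0.16 (adjusted p = 0.231), and Kif21a had 0.39 ± 0.16 (adjusted p = 0.516). All 12 mitotic members had a negative difference, with a median of -0.18 against -0.03 for all tested genes, of which 55.1% were negative. The sign turned for 6 of these 12 (Kif11, Kif14, Kif15, Kif20b, Kif2c and Kif4) without KD largazole replicate 1, with values then between 0.0019 and 0.16. DESeq2 called 0 members. Without KD largazole replicate 1 Kif1c and Kif21a passed, and without KD largazole replicate 2 Kif18a passed.

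The next question was how KD cells differ from parental ones before the drug. Of the 39 tested members 1 passed, Kif17, where 11.1% of all tested genes did, 7.11% higher and 3.99% lower in KD cells. All 12 mitotic members were lower in mean level, with a median log2 fold change of -0.15, and 11 did so without overlap of the libraries, as did 30.2% of all tested genes, but none passed (edgeR's quasi-likelihood test), 4 had an unadjusted p under 0.05 (24.8% of all tested genes did) and DESeq2 called none. Their changes ran from -0.37 ± 0.13 for Kif15 (adjusted p = 0.114) to -0.06 ± 0.07 for Kif20a.

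Mesenchymal markers moved with the knockdown. Of 8 such genes 7 were higher in KD cells in DMSO and 5 under largazole, where 7.11% and 8.11% of all tested genes were higher. None of the 8 was lower by the test. Thy1 was at 17.6 and 15.9 CPM in parental and 65.3 and 65.6 in KD cells before the drug, Dcn at 70.6 and 72.5 against 174 and 168, and Pdgfrb at 42.1 and 43.0 against 79.5 and 83.4. The summed level of the 8 genes was 9254 to 9545 CPM in parental and 10003 to 10007 CPM in KD cells in DMSO, and 8890 to 9117 and 9449 to 9464 CPM under largazole. The 4 tested neuron markers did not move together. Tubb3 was lower in KD cells in both conditions, by 0.78 and 1.18 on the log2 scale. Under largazole Stmn2 passed as higher in KD cells, at 35.1 and 36.4 CPM in parental against 57.7 and 46.3 in KD libraries. The part of the mesenchymal and neuron markers in the knockdown results was not tested.

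Kif17, a neuronal and ciliary motor of kinesin-2, was at 1.18 and 1.75 CPM before and 1.57 and 2.11 after the drug in parental cells, and 3.10 and 3.76 before and 2.88 and 3.57 after it in KD cells. The gene lies at chr4:138250435-138301967 (plus strand). All 4 KD libraries of Kif17 lay above all 4 parental ones, and the share of all tested genes with this separation was not computed. Within 1 condition, the 2 KD libraries lay above the 2 parental ones for 30.5% of all tested genes in DMSO and 25.5% under largazole. Kif17 had log2 fold changes of 1.21 ± 0.32 in DMSO (adjusted p = 0.0384) and 0.81 ± 0.31 under largazole (adjusted p = 0.103). The call in DMSO was lost with DESeq2 (adjusted p = 0.0901) and without any 1 of the 4 parental or 2 KD DMSO libraries (from 0.0601 to 0.264). Kif17 shares 1.615% of its exon bases with Sh2d5 on the same strand. The median over the transport members was -0.0023. Among the partners of the mitotic motors 4 of 21 were lower in KD cells in DMSO, as were 3.99% of all tested genes. Aurkb was lower by 0.57 on the log2 scale, and Foxm1 and Mybl2 by 0.49 and 0.66.

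The KD largazole libraries are not part of the comparison in DMSO but enter the shared spread of the fit. The cause was not tested, but the number of members that passed in DMSO was higher without either of them. It was 10 without KD largazole replicate 1 and 11 without replicate 2, and the mitotic count was then 4 in each case, while it was 0 without any 1 of the other 6 libraries. With only the 4 DMSO libraries 12 members passed, 5 of them mitotic and lower.

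Under largazole the same comparison called 8 members, against 17.7% of all tested genes, namely 5 mitotic genes lower and 2 transport genes and Kif21a higher in KD cells. The mitotic genes were Kif18a, Kif18b, Kif23, Kifc1 and Kif22. All 12 mitotic members had lower levels in both KD libraries than in both parental ones, where 27.7% of all tested genes were separated in this direction and 9.6% passed as lower. Their median log2 fold change was -0.38, against -0.0026 for all tested genes and 0.05 for the transport members.

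Kif18a, at 24.6 and 29.0 CPM in parental and 15.6 and 16.7 CPM in KD largazole, had the largest of these changes, -0.73 ± 0.12 (adjusted p = 0.00276). Kif18b, at 41.6 and 43.8 against 30.6 and 29.2 CPM, fell by 0.51 ± 0.09 (adjusted p = 0.00483), Kif23 by 0.41 ± 0.10 (0.0192) and Kifc1 by 0.40 ± 0.08 (0.0102). Kif22, at -0.33 ± 0.10, was close to the threshold (adjusted p = 0.0443) and was lost with DESeq2 (0.0619). Of the 7 others the nearest were Kif4 (-0.37, adjusted p = 0.0556) and Kif20b (-0.40, adjusted p = 0.0861). Among their partners 13 of 21 fell, with a median of -0.40, where 9.6% of all tested genes passed as lower. Foxm1 and Mybl2 fell by 0.65 and 1.06.

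All members that passed numbered 13 and 18 without KD largazole replicate 1 and 2, 5 without either parental DMSO library, and 2 and 3 without parental largazole replicate 1 and 2. The mitotic count was 2 without either parental largazole library, 3 without either parental DMSO library, 9 without KD largazole replicate 2 and 1, that of Kif18a, with only the 4 largazole libraries. Kif18a also kept its call without any 1 library. The Kif18b call was lost without parental largazole replicate 2 (adjusted p = 0.0576), that of Kifc1 without parental largazole replicate 1 (0.0984), that of Kif23 without any 1 of the 4 parental libraries (up to 0.128) and that of Kif22 without any 1 library but KD largazole replicate 1 (up to 0.236). KD largazole replicate 1 was the library with the highest Rn45s, at 23907 CPM, and in it 9 of 12 mitotic members had a lower level than in replicate 2. The share of all tested genes that were lower in it was not computed. The lower level was not limited to mitotic members. Their sum was 436 against 480 CPM in replicate 2, and that of the transport members 1296 against 1496. The part of Rn45s in the result was not tested.

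Of the transport members that passed, Klc4, a kinesin light chain, was at 13.6 and 11.9 CPM before and 13.9 and 15 after the drug in parental cells, and 20.1 and 15.3 before and 27.6 and 20.0 after it in KD cells. Its KD libraries lay above the parental ones in both conditions, with 0.72 ± 0.19 under largazole (adjusted p = 0.026) and 0.47 ± 0.19 in DMSO (adjusted p = 0.155). Kifap3 was higher by 0.31 ± 0.09 under largazole (adjusted p = 0.0467) and had 0.26 ± 0.10 in DMSO (adjusted p = 0.127). Kif21a was 1.48-fold higher under largazole (adjusted p = 0.00713), where 8.11% of all tested genes were higher. The Klc4 call was lost without either parental largazole library (adjusted p = 0.159 and 0.104 without replicate 1 and 2), and that of Kif21a without parental largazole replicate 1 (0.0808). The Kifap3 call was lost with DESeq2 (0.0542) and without any 1 library but KD largazole replicate 1 (0.0773 to 0.29).

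**Figure D5:**
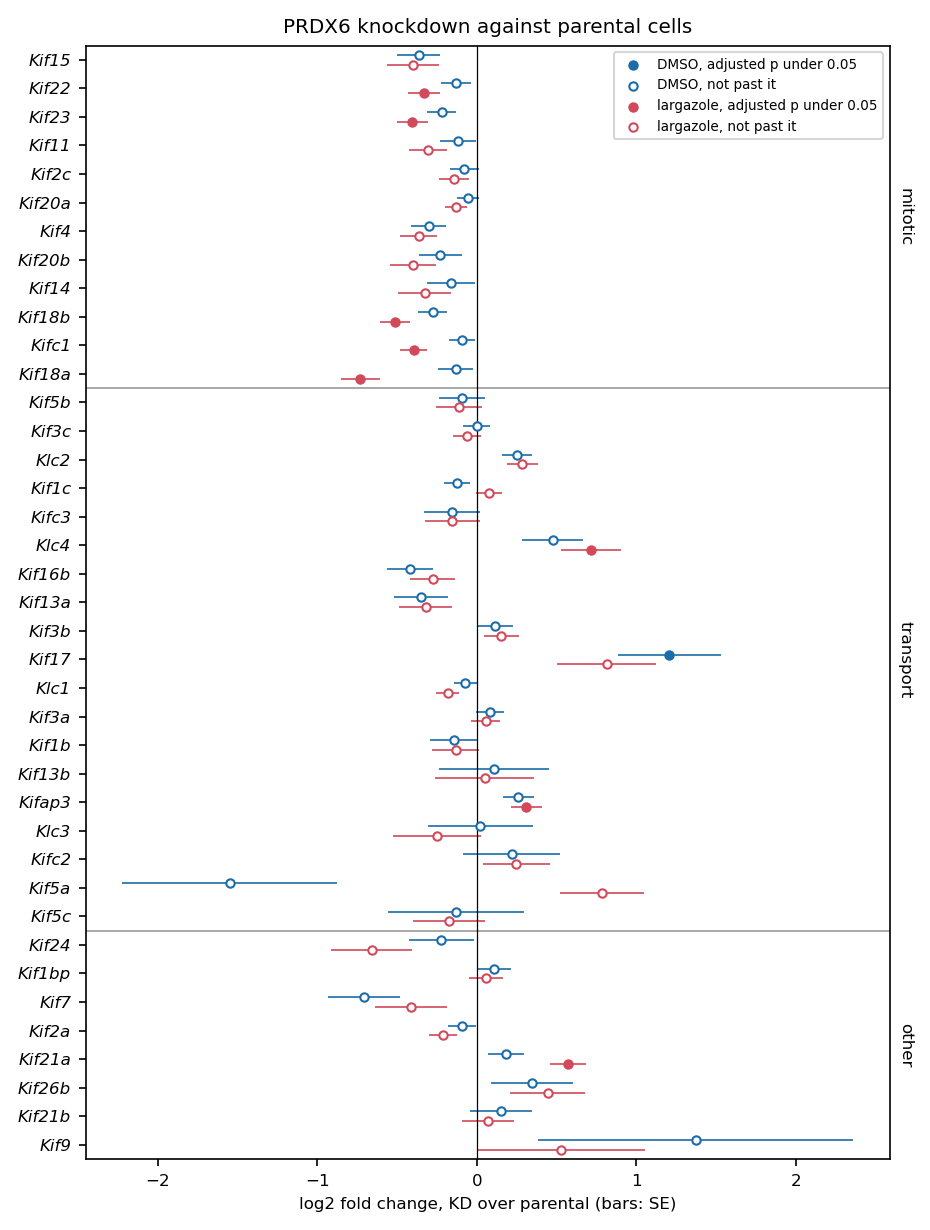
Log2 fold change of KD over parental cells (x axis) for the 39 tested kinesin genes in DMSO (blue) and under largazole (red), with bars of 1 SE and filled points where the adjusted p was under 0.05. All mitotic points lie left of 0, 5 of them filled, all under largazole, and Kif17 is the only filled point in DMSO.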

How the data were processed

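The deposited files hold the authors' estimated counts (expected counts) per gene symbol, not normalized: few have decimals, and each library has its own total. Per the submitters' processing notes the build was mm10. Aligner, counter, strand setting and annotation: not given in the sources used here. RNA was selected by polyA and made into stranded libraries, per the labels' protocols. Counts were rounded to whole numbers, and 27 symbols turned into dates could not be named.

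All genes with at least 10 counts in 2 or more libraries were fitted with edgeR 4.0.16 (quasi-likelihood F test, TMM, 1 mean per group, all 8 libraries, R 4.3.3), with Benjamini-Hochberg adjustment over 12567 genes and a threshold of 0.05. Standard errors were taken from the F statistic, as the absolute log2 fold change over its square root. The common biological coefficient of variation was 0.0946. The fit was also run on simulated counts with the same spread in all groups. That run does not cover the unequal scatter of the replicates seen here. DESeq2 1.42.0, RLE scaling, library totals only, edgeR's filterByExpr, no filter, only the libraries compared, a replicate block, other classes for Kif2a, Kif24, Kif21a and Kif21b, and leaving out each library were the alternatives. Leaving out a library leaves 1 in its group, assumed to vary like the others.

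Gene positions and exon overlaps are from GENCODE M21 on GRCm38, the assembly of mm10, and promoters from RefSeq. The members, classes, gene lists and motifs were chosen with earlier results of these data known. Library values are given for up to 8 called members per main class by largest change with largazole, up to 4 with the knockdown, up to 5 of the other class, and up to 3 genes per list. Kif5b, Kif3c and the shares of the heavy chain RNA were described after their values were seen.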

Additional observations from a re-analysis of the deposited data

How the results depend on the processing

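No member that passed the test changed sign under any alternative. Among values that did not pass, 44 over the 5 comparisons took the other sign under at least 1 alternative, 24 of them in the difference between responses and 6 of those mitotic. The counts of 12 mitotic members lower with largazole in each genotype were the same in every alternative with these classes (13 and 14 with Kif2a and Kif24 among them). Counts of transport and knockdown calls moved. With only the libraries compared, transport members lower with largazole were 4 in parental cells (main 0) and 0 in KD cells (main 1), and higher in KD cells 5 (main 9). In DMSO the knockdown then called 12 members (main 1), 5 mitotic lower, 4 transport higher and 2 lower, and under largazole 1 (main 8), 1 mitotic lower (main 5) and 0 transport higher (main 2). DESeq2 gave 0 transport members lower with largazole in KD cells, 0 members in DMSO with 0 transport higher, and 1 transport member higher under largazole. Library totals gave 0 and 1 for the first and last of these, and no filter gave 1 and 2 transport members lower with largazole in parental and KD cells.

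With the replicate block, transport members lower with largazole were 1 in parental and 2 in KD cells, the knockdown called 6 members in DMSO (3 mitotic lower, 2 transport higher, 1 lower), and 8 mitotic members were lower under largazole. The labels do not say that the numbers pair libraries, and the replicate differences of pairs of groups correlated between -0.00767 and 0.364 over 10183 genes.

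Without 1 library at a time, transport members higher with largazole ranged from 5 to 12 in parental and 5 to 12 in KD cells, and lower from 0 to 4 and 0 to 2. The knockdown in DMSO called 0 to 11 members (mitotic lower 0 to 4, transport higher 0 to 4, lower 0 to 2) and under largazole 2 to 18 (mitotic lower 2 to 9, transport higher 0 to 5, lower 0 to 4). The difference between responses called 0 to 2 members (mitotic lower 0 to 1, transport higher 0 to 1). The cause was not tested. Over all genes, the knockdown in DMSO called 893 higher and 502 lower, and 334 to 1719 and 83 to 1520 under the alternatives. Under largazole it called 1019 and 1206, and 401 to 1967 and 410 to 2142. The difference between responses called 5 and 24, and 1 to 221 and 1 to 345. Members with counts near 0 in DMSO, such as Kif5a and Kif9, are limited by depth.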
